A study of Mus musculus with 13 samples.

Results

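RNA levels after an antibody against the activating receptor NK1.1 were compared in mouse natural killer (NK) cells, across all genes. The cells were cultured with HD IL-15 or with LD IL-15. Both groups were splenic NK cells of WT C57BL/6 mice that had 72 hours of IL-15 and then 6 hours of anti-NK1.1, and their labels differ in the IL-15 culture. LD replicate 3 also came from another library pool, as given below. The labels do not spell out HD and LD. The HD group had 3 libraries (replicates 1, 2 and 3) and the LD group 2 (replicates 1 and 3), which are 5 of the 13 libraries of the study. The other 8 were HD cells left unstimulated (n = 2), naive cells given anti-NK1.1 (n = 3) and naive cells left unstimulated (n = 3), with no culture time given for the naive cells. No LD library without antibody was analysed, so a difference already there before the antibody and a difference in the response to it cannot be told apart. The labels say neither how the NK cells were purified nor whether the replicates are separate animals or cultures, so p-values measure the spread between these libraries, which may be technical.

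IL-15 is the cytokine on which NK cells depend for survival. It signals through the receptor chains encoded by *Il2rb* and *Il2rg* to the kinases JAK1 and JAK3 and the transcription factor STAT5. NK1.1, encoded by *Klrb1c*, signals through the adaptor FcRγ and, when crosslinked, makes NK cells secrete interferon-γ and chemokines and release cytotoxic granules. The granules hold perforin, which lets cargo into the target cell, and granzymes, the serine proteases that kill it.

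Levels are back-transformed values scaled to the same total in each library (CPM), printed in the order of replicates 1, 2 and 3 for HD and 1 and 3 for LD. Changes are log2 fold changes, HD minus LD, ± standard error, from a single limma fit to all 13 libraries, and a gene was called at a Benjamini-Hochberg adjusted p under 0.05. Of 11543 genes tested, 993 (8.6%) were called, 378 higher in HD (3.27%) and 615 lower (5.33%). All list counts below are read against these shares. The groups did not overlap for any of the higher calls and for 614 of the lower ones. Non-overlap was common among all tested genes too (41.7%; 20.8% with HD above and 20.9% with HD below), so where it is mentioned below it describes the values and is no support. The median change of all tested genes was -0.01, with quartiles of -0.42 and 0.39. At least 2-fold differences made up 334 of the higher and 486 of the lower calls, and at least 4-fold differences 158 and 191. The share of higher calls, 38.1%, moved with the fit, from 30.4% with library pool as a factor to 50.3% with the 5 libraries fitted alone. Recovered reads tested with limma-voom gave 666 higher and 717 lower calls (48.2% higher), and the 5 libraries alone gave 408 and 403. Leaving out 1 library gave 30.4% to 34.4% higher.

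HD libraries correlated with each other at r of 0.968 to 0.974 across genes, the LD pair at 0.967, and HD with LD libraries at 0.923 to 0.940; genes are not independent replicates. The median gene had 153 to 222 reads in the HD libraries, against 463 reads in LD replicate 1 and 266 in LD replicate 3, so the LD group was the more deeply read. LD replicate 3 was made in another library pool than the other 4 libraries, per the file header, and no HD library lay in its pool. The difference within 1 pool therefore rests on the HD libraries against LD replicate 1 alone. That comparison called 135 genes higher (1.17%) and 309 lower (2.68%), among them 125 and 261 of the genes called with both LD libraries. All 378 and 615 called genes kept their sign in it. When each of the 5 libraries was left out in turn, 85 higher and 199 lower calls stood every time. Named genes that lost their call in a leave-out are given as such below, with the adjusted p.

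**Figure D1:**
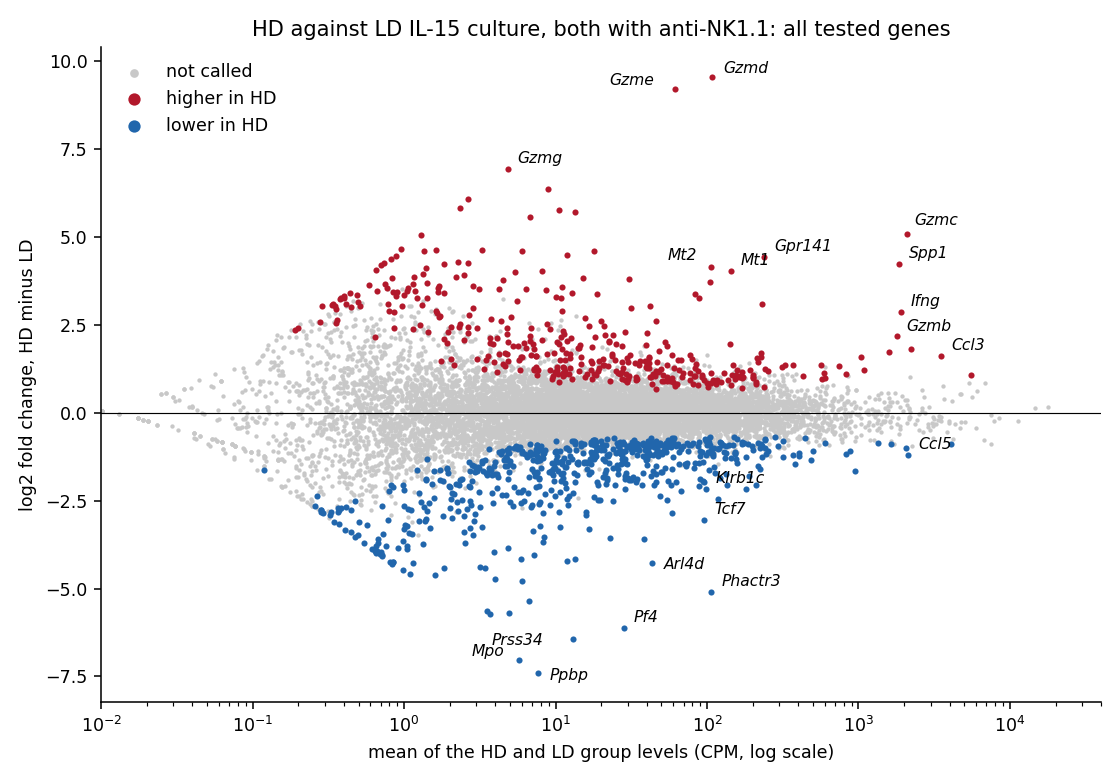
Each point is 1 of the 11543 tested genes, with the mean of the HD and LD group levels (CPM, log scale) across and the log2 fold change of HD minus LD up. Genes called higher in HD are red and genes called lower are blue; the granzyme genes *Gzmd* and *Gzme* lie highest, and the platelet gene *Ppbp* and the myeloid gene *Mpo* lie lowest.

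The 4 highest log2 fold changes of all tested genes were those of *Gzmd*, *Gzme*, *Gzmg* and *Gzmf*. They belong to the granzyme cluster of chromosome 14, where 6 genes lie between 56117626 and 56262260 on the minus strand (mm10), in the order *Gzme*, *Gzmd*, *Gzmg*, *Gzmf*, *Gzmc*, *Gzmb*. All 6 were called higher in HD. *Gzmb* encodes the main caspase-cleaving granzyme, and the other 5 are rodent granzymes with less well defined substrates. *Gzmc* was at 4083, 4321 and 3695 CPM in HD, against 111 and 128 CPM in LD (5.07 ± 0.22, adjusted p = 1.54e-08; 5.18 within pool 1). *Gzmb* was at 2826, 3064 and 2825 CPM in HD, against 488 and 848 CPM in LD (2.17 ± 0.27, adjusted p = 1.49e-04; 2.57 within pool 1). For both genes the HD libraries lay close to each other and above both LD libraries.

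*Gzmd*, *Gzme*, *Gzmf* and *Gzmg* were at or near absence in LD. *Gzmd* was at 218, 231 and 197 CPM in HD, against 26 reads in LD replicate 1 and none in LD replicate 3. *Gzme* was at 119, 134 and 116 CPM in HD, against 13 reads and none. *Gzmg* had 100, 133 and 123 reads in HD and none in either LD library. It was at least 71.9-fold higher in HD, with reads scaled to depth and 3 reads per library as the limit that a count of 0 allows. *Gzmf* was at 11.7, 10.4 and 31.05 CPM in HD, against 0.361 CPM and no read in LD (6.37 ± 0.74). The fitted changes of *Gzmd* (9.55 ± 0.72) and *Gzme* (9.22 ± 0.65) depend on the 1 added before the logarithm and are no bounds. The same holds for *Gzmf* and for genes below with a library at or near no read, including *S1pr1*, *S1pr5*, *Cdkn2b*, *Prss34* and *Ctsg*. In HD cells without antibody *Gzmc* was at 1742 and 2485, *Gzmd* at 101 and 129 and *Gzmb* at 1405 and 1613 CPM. In naive cells with antibody *Gzmc* averaged 1.89 ± 0.237 and *Gzmb* 199 ± 43.2 CPM (SD, n = 3). Reads of these near-identical genes can be split between copies by the counting, which the sources used here do not describe, so the share of each single copy is uncertain.

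The promoters of the cluster are shown because the 6 genes were all called higher and 5 of them are close copies. Each line gives the 120 bases before the RefSeq start (GRCm38.p6, minus strand, 5′ to 3′). Capitals mark a match to TGANTCA (*Gzmb*), a match to TGACGTCA (*Gzmc*, *Gzmf*, *Gzmg*), or the 8 bases closest to TGACGTCA (*Gzmd*, *Gzme*).
Gzmb, chr14:56262335-56262454: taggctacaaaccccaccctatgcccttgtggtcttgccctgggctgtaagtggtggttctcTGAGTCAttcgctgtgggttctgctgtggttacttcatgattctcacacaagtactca
Gzmc, chr14:56234658-56234777: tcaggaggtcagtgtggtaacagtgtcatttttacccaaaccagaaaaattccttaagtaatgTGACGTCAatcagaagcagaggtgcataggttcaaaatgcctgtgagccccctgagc
Gzmd, chr14:56132594-56132713: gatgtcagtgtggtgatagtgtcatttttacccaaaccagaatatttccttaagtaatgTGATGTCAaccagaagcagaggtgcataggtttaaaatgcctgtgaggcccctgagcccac
Gzme, chr14:56120626-56120745: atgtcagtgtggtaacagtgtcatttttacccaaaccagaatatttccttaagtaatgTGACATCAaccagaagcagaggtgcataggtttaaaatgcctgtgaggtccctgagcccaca
Gzmf, chr14:56211408-56211527: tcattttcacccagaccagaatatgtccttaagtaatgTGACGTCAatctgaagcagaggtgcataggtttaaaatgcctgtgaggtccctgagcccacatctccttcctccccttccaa
Gzmg, chr14:56159580-56159699: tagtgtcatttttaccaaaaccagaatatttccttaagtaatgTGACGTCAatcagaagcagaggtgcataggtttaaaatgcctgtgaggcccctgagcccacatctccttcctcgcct

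Over 300 bases (250 before the start and 50 after), the promoters of *Gzmc* to *Gzmg* were 79.7% to 93.7% identical to each other and 49% to 52.7% identical to that of *Gzmb*. TGACGTCA, the letters of a cyclic-AMP response element, starts 57 bases before the start in *Gzmc*, 82 in *Gzmf* and 77 in *Gzmg*. Counting from 1 in TGACGTCA, *Gzmd* differs by C4T and *Gzme* by G5A. *Gzmb* instead holds TGAGTCA, a match to the AP-1 letters TGANTCA, 58 bases before its start. TGACGTCA, looked at only after the granzyme values were known, was in 3.09% of the 11799 promoters of tested genes, in 2.89% of the 381 of genes called higher and in 1.86% of the 646 of genes called lower. On either strand, TGANTCA was in 5.09% of all, 10.2% of the higher and 5.57% of the lower promoters. In the same order the STAT letters TTCNNNGAA were in 6.92%, 8.14% and 9.6%, the E-box CACGTG in 9.88%, 8.14% and 8.51%, and TGATGNAA in 2.38%, 3.15% and 2.32%. These are shares of promoters that hold the letters, with no test. No motif is contained in another, and a gene can have several promoters in the table.

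The wider granule list held 25 tested genes, of which 12 were called higher and 1 lower, with a median change of 0.51 (10 higher and none lower within pool 1). Among the protease inhibitors that shield a killer cell from its own granzymes, *Serpinb9b* (2.02 ± 0.24), *Serpinb6b* (1.81 ± 0.23) and *Serpinb9* (1.11 ± 0.21) were all higher. *Serpinb6b* was at 3246, 3654 and 3488 CPM in HD, against 1108 and 877 CPM in LD. *Gzma*, which lies on chromosome 13 and encodes the tryptase of the granule, was at 1839.7, 1613 and 1133 CPM in HD, against 526 and 775 CPM in LD (1.23 ± 0.26, adjusted p = 0.00841). *Prf1*, the gene of perforin, was at 2048, 3030.3 and 2147 CPM in HD, against 1034 and 492 CPM in LD (1.73 ± 0.45, adjusted p = 0.0296; 1.20 within pool 1). That call was lost when LD replicate 3 or any HD library was left out, with an adjusted p of 0.0542 to 0.299. *Rab27a*, needed for granule docking, completed the higher calls (0.88 ± 0.22). *Ctsw*, a cathepsin of cytotoxic cells, was lower (-1.09 ± 0.25), and *Nkg7* was not called (-0.44 ± 0.22, 95% interval -0.91 to 0.03). *Rab27a* and *Ctsw* lost their calls without LD replicate 3 (adjusted p 0.175 to 0.178). *Serpinb9*, *Gzma* and *Rab27a* lost their calls without LD replicate 1 (0.0587 to 0.106). *Rab27a* and *Ctsw* lost their calls without at least 1 HD library (0.0545 to 0.0729).

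**Figure D2:**
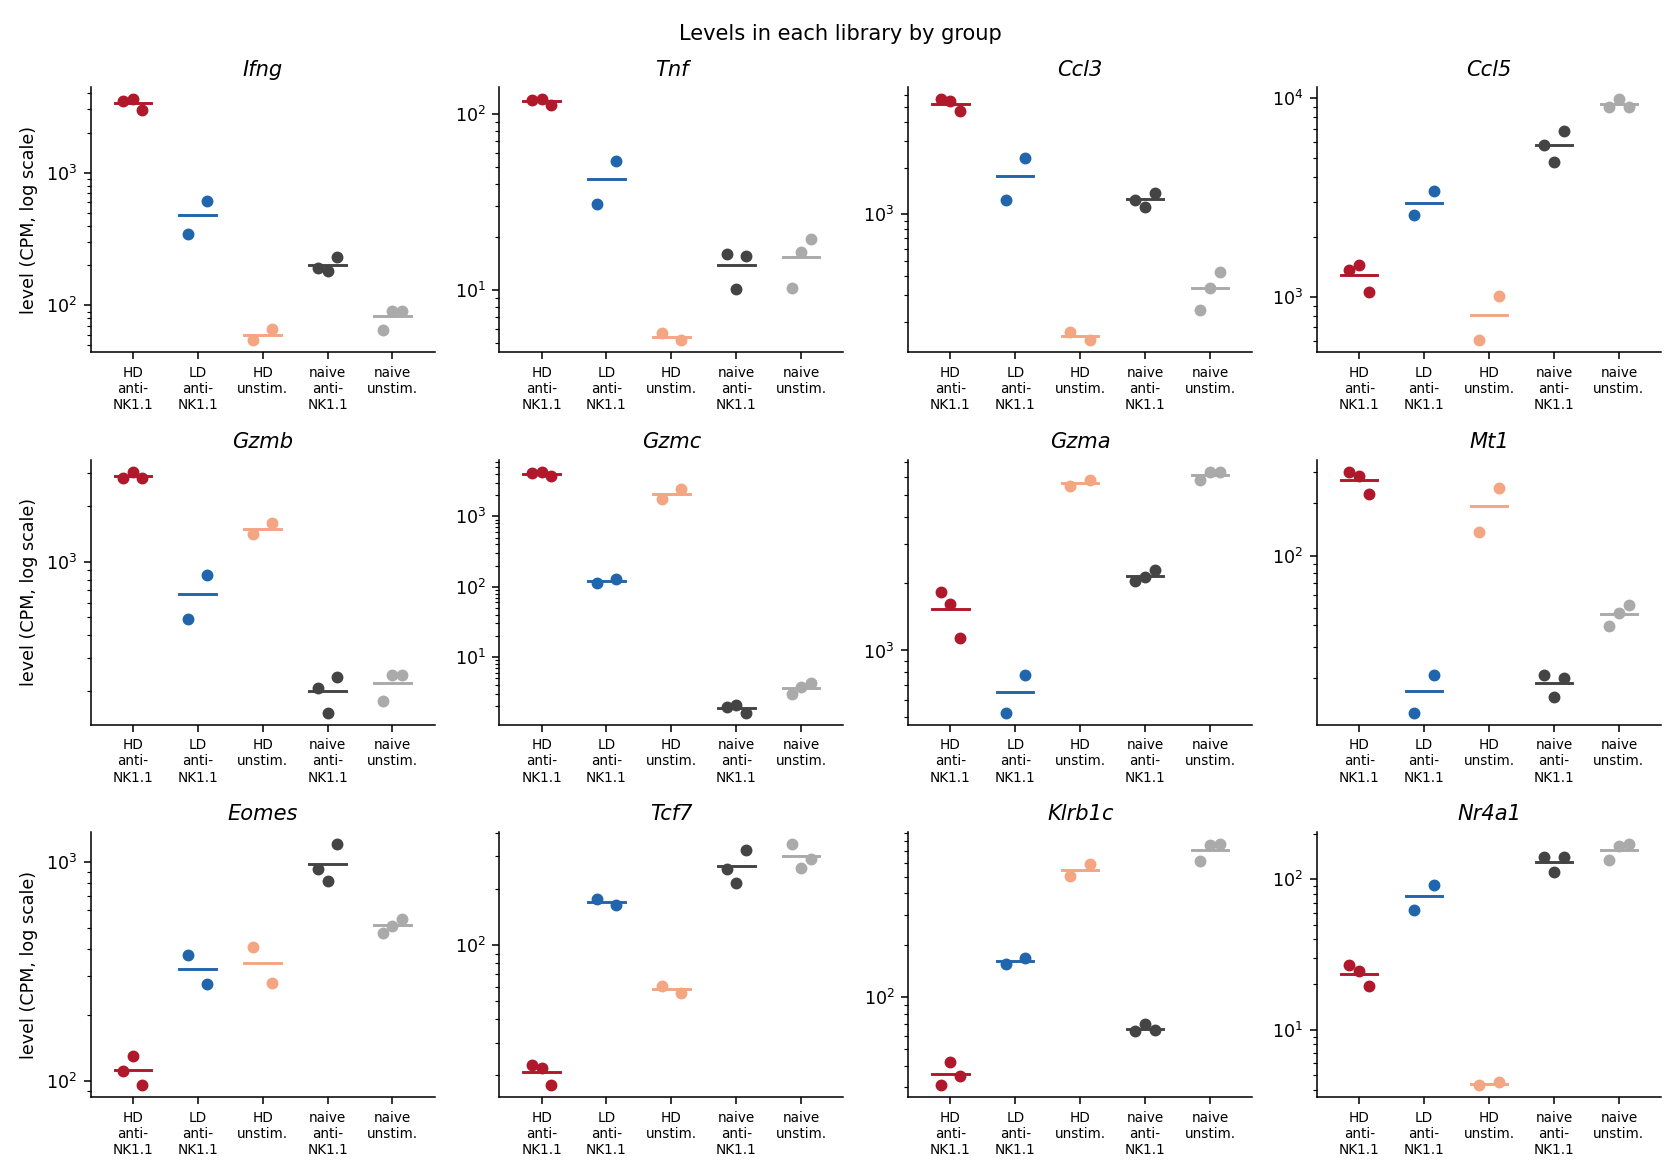
Levels of 12 genes (CPM, log scale) in every library of the 5 groups, with 1 point per library and a line at the group mean. In HD with anti-NK1.1, *Ifng* lies between 2989 and 3571 CPM, above both LD libraries (342 and 617 CPM), while *Eomes*, *Tcf7*, *Klrb1c* and *Nr4a1* lie below both LD libraries.

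Genes of secreted effectors were among the highest in HD. Of 12 tested effector cytokines and growth factors, 5 were called higher (*Ifng*, *Tnf*, *Csf2*, *Fgf18*, *Areg*) and 1 lower (*Ltb*), with a median change of 1.07 (4 higher and 1 lower within pool 1). *Ifng*, which encodes interferon-γ, the macrophage-activating cytokine of NK cells, was at 3488, 3571 and 2989 CPM in HD, against 342 and 617 CPM in LD (2.86 ± 0.26, adjusted p = 7.82e-06; 3.29 within pool 1). HD cells without antibody had 54.7 and 65.9 CPM. *Tnf* was at 119.5, 120.4 and 112 CPM in HD, against 30.9 and 53.9 CPM in LD (1.52 ± 0.31, adjusted p = 0.007; 0.104 without LD replicate 1). *Areg*, an epidermal growth factor receptor ligand, was at 12.1, 14.1 and 33.2 CPM in HD, against 1.79 and 1.79 CPM in LD (3.26 ± 0.63). *Hbegf*, another ligand of that receptor, was at 155, 164 and 159.8 CPM in HD, against 15.2 and 18.1 CPM in LD (3.26 ± 0.43). HD cells without antibody had 18.9 and 18.3 CPM of *Hbegf*. 

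*Csf2*, the gene of granulocyte-macrophage colony-stimulating factor, varied between HD libraries, at 16.9, 49.9 and 15.8 CPM, against 4.75 and 2.7 CPM in LD (2.70 ± 0.79, adjusted p = 0.0477). Leaving out any 1 library ended its call (adjusted p 0.0697 to 0.286), as it did for *Fgf18* (3.39 ± 0.94, adjusted p 0.0739 to 0.203). *Ltb*, which encodes the lymphotoxin-β subunit, fell to 10.6, 7.87 and 7.31 CPM in HD, against 33.4 and 35.8 CPM in LD (-2.02 ± 0.26, adjusted p = 2.51e-04). Of 8 tested TNF superfamily ligands, *Tnfsf4*, the ligand of OX40, was higher (2.22 ± 0.40) and *Fasl*, a death receptor ligand, was lower (-0.80 ± 0.19). *Tnfsf4* and *Fasl* lost their calls without LD replicate 3 (adjusted p 0.0603 to 0.16). *Fasl* lost its call without at least 1 HD library (0.0508).

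Chemokine genes went both ways. Of 12 tested, *Ccl3*, *Ccl1* and *Cxcl2* were higher, *Ccl5*, *Ccl22*, *Cxcl9* and *Cxcl10* were lower, and the median change was -0.03 (1 higher and 2 lower within pool 1). *Ccl3*, which encodes an inflammatory chemokine, was at 5604, 5462 and 4686 CPM in HD, against 1243 and 2317 CPM in LD (1.63 ± 0.29, adjusted p = 0.0025). *Ccl5*, which encodes a chemokine that attracts T cells, was at 1366, 1447 and 1056 CPM in HD, against 2568 and 3388 CPM in LD (-1.21 ± 0.28, adjusted p = 0.0159; 0.167 without LD replicate 3 and 0.058 without HD replicate 3). *Ccl3* was thus higher in HD and *Ccl5* lower. *Cxcl9*, induced by interferon-γ in other settings, was at 1.27, 0.752 and 2.55 CPM in HD, against 23.98 and 27.1 CPM in LD (-4.16 ± 0.60). It averaged 231 ± 56.4 CPM in naive cells with antibody (SD, n = 3). *Ccl4* was not called, at 7273, 5818 and 6362 CPM in HD and 3828 and 5818 CPM in LD (0.45 ± 0.27, 95% interval -0.14 to 1.04). *Xcl1*, which attracts dendritic cells, was not called either, at 7926, 9853 and 8459 CPM in HD and 4539 and 5229 CPM in LD (0.84 ± 0.35, 95% interval 0.09 to 1.59). The other changes were 1.08 ± 0.25 for *Ccl1*, 1.41 ± 0.38 for *Cxcl2*, -1.89 ± 0.39 for *Ccl22* and -1.20 ± 0.33 for *Cxcl10*. *Ccl1*, *Cxcl2* and *Cxcl10* lost their calls without LD replicate 3 (adjusted p 0.0868 to 0.405). *Ccl1*, *Cxcl2* and *Ccl22* lost their calls without LD replicate 1 (0.0746 to 0.159). *Ccl1*, *Cxcl2* and *Cxcl10* lost their calls without at least 1 HD library (0.0549 to 0.112).

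Beyond granzymes, the highest increases among genes averaging at least 20 CPM included secreted and membrane proteins and the metallothioneins. *Spp1*, the gene of the secreted phosphoprotein osteopontin, was at 4686, 2048 and 3828 CPM in HD, against 171 and 181 CPM in LD (4.24 ± 0.34, adjusted p = 3.08e-06). *Gpr141*, which encodes an orphan G-protein-coupled receptor, was at 404, 439 and 529 CPM in HD, against 25.1 and 17.3 CPM in LD (4.44 ± 0.37). Both were also abundant in HD cells without antibody, *Spp1* at 1839.7 and 1028 and *Gpr141* at 719.7 and 466 CPM. The interferon-induced transmembrane genes *Ifitm1* (3.73 ± 0.23) and *Ifitm2* (3.81 ± 0.33) were higher, with paralogs that can share reads. Also higher were the calcium-binding protein gene *S100a6* (3.09 ± 0.26), the unconventional myosin *Myo10* (3.38 ± 0.44), the actin-binding *Avil* (4.60 ± 0.62) and the nonclassical MHC gene *H2-Q10* (3.04 ± 0.23). All 8 stood in every leave-out.

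Metallothioneins are small cysteine-rich proteins that bind zinc and copper. *Mt1* was at 303, 285 and 225 CPM in HD, against 12.7 and 20.9 CPM in LD (4.04 ± 0.28, adjusted p = 1.58e-06; 4.40 within pool 1). *Mt2* was at 207, 216 and 177 CPM in HD, against 8.68 and 14.5 CPM in LD (4.14 ± 0.32, adjusted p = 1.76e-06; 4.51 within pool 1). They were the 2 called members among 7 tested of the zinc list (2 higher and 1 lower within pool 1). The zinc transporter genes *Slc30a1* (-0.86 ± 0.32, 95% interval -1.54 to -0.19) and *Slc30a4* (0.82 ± 0.39, 95% interval -0.02 to 1.65) were not called. In HD cells without antibody *Mt1* was at 138 and 246 and *Mt2* at 49.6 and 74.2 CPM. The 2 genes are neighbours on chromosome 8, and their 300-base RefSeq promoters (GRCm38.p6, plus strand) are shown because such promoters are known for metal response elements. Capitals mark TGCNCNC on either strand, a looser pattern than the core letters TGCRCNC of that element, where R is A or G.
Mt1, chr8:94178839-94179138: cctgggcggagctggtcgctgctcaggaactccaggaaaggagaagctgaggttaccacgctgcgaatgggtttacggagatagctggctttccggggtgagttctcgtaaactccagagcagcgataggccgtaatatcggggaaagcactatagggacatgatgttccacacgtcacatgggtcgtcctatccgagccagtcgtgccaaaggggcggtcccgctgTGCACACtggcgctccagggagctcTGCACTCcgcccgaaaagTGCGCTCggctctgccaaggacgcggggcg
Mt2, chr8:94172368-94172667: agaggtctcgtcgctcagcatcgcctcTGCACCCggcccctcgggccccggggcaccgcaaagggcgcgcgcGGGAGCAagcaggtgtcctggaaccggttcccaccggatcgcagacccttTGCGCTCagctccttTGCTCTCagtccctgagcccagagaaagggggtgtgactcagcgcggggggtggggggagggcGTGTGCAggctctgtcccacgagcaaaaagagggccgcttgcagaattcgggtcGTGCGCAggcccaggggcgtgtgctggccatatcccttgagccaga
*Mt1* holds TGCNCNC 3 times and *Mt2* 6 times. Those of *Mt2* include TGCTCTC and GGGAGCA, which do not match TGCRCNC on either strand. In the promoters of tested genes, at least 3 matches were found in 10% and at least 6 in 0.356%. The motif was chosen after the values of both genes were known, and matches on both strands were counted.

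RNA of the receptor that the antibody binds was lower in HD, and its protein was not analysed here. *Klrb1c* (chromosome 6, 128778485 to 128789215, minus strand) was at 31.01, 42.1 and 34.97 CPM in HD, against 155 and 169 CPM in LD (-2.18 ± 0.20, adjusted p = 9.18e-06; -2.11 within pool 1). HD cells without antibody had 502 and 589 CPM, and naive cells with antibody averaged 65.9 ± 3.31 CPM (SD, n = 3). Its neighbours *Klrb1b* (-2.22 ± 0.24), which encodes an inhibitory receptor, and *Klrb1a* (-1.81 ± 0.24) were lower as well, and reads of these paralogs may be shared. In all, 12 of 34 tested NK receptors and adaptors were called lower and 2 higher, with a median change of -0.68 (6 lower and 1 higher within pool 1). The lower ones included *Klrk1*, the gene of the stress-ligand receptor NKG2D (-1.0 ± 0.21), *Slamf6* (-2.94 ± 0.44), *Cd226* (-1.40 ± 0.34) and the Fc receptor *Fcgr3* (-0.91 ± 0.21). Also lower were *Ncr1*, the gene of NKp46 (-0.92 ± 0.26), the signalling chain *Cd247* (-0.81 ± 0.24) and the kinase *Syk* (-1.64 ± 0.27). The higher ones were *Klra5* (2.29 ± 0.39) and *Cd244a* (1.26 ± 0.33). *Klrg1*, a marker of mature NK cells, was not called (0.43 ± 0.26, 95% interval -0.12 to 0.98). *Klrk1*, *Cd226*, *Fcgr3*, *Ncr1*, *Cd247* and *Cd244a* lost their calls without LD replicate 3 (adjusted p 0.0989 to 0.36). *Cd226*, *Cd247* and *Cd244a* lost their calls without LD replicate 1 (0.0713 to 0.112). *Cd226*, *Fcgr3*, *Ncr1*, *Cd247* and *Cd244a* lost their calls without at least 1 HD library (0.0546 to 0.117).

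Among activation and checkpoint receptors, *Havcr2*, which encodes TIM-3, was at 70.6, 63.4 and 66.6 CPM in HD, against 14.9 and 12.9 CPM in LD (2.26 ± 0.31, adjusted p = 4.15e-04). *Thy1* (1.04 ± 0.22) and the ectonucleotidase gene *Entpd1* (1.22 ± 0.32) were higher too. Of the 22 tested, 3 were higher and 2 lower, among them *Cd7* (-2.48 ± 0.26). The uncalled members included the costimulatory receptor *Tnfrsf9* (0.13 ± 0.21, 95% interval -0.32 to 0.58) and the early activation marker *Cd69* (0.17 ± 0.22, 95% interval -0.31 to 0.64). *Entpd1* lost its call without LD replicate 3 (adjusted p 0.244). *Thy1* and *Entpd1* lost their calls without LD replicate 1 (0.0575 to 0.0923). *Entpd1* lost its call without at least 1 HD library (0.0789 to 0.093).

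Genes of receptors that guide NK cells between blood, lymph node and tissue were lower in HD. Of the 22 tested, 9 were called lower and none higher, with a median change of -0.81 (8 lower within pool 1). At an unadjusted p under 0.05 limma had 0 of them higher too, and limma-voom on recovered reads called 0 higher and 9 lower. The sphingosine-1-phosphate receptor genes *S1pr1* and *S1pr5*, whose products draw lymphocytes out of tissue, were near absence in HD. *S1pr1* was at no read, 0.501 and 0.42 CPM in HD, against 18.1 and 7.76 CPM in LD (-5.35 ± 0.63). *S1pr5* was at 1.04, 0.204 CPM and no read in HD, against 6.13 and 6.65 CPM in LD (-4.42 ± 0.74). The fitted changes of *S1pr1* and *S1pr5* are no bounds. *S1pr4* was lower too (-1.09 ± 0.23). The chemokine receptor genes *Cxcr3* (-3.66 ± 0.30), *Cxcr4* (-3.57 ± 0.27), *Ccr7* (-3.22 ± 0.38) and *Cx3cr1* (-2.83 ± 0.42) and the β2 integrin *Itgb2* (-1.14 ± 0.20) were also lower. Outside that list *Itgax*, the gene of CD11c, was at 73.8, 71.5 and 52.98 CPM in HD, against 261 and 332 CPM in LD (-2.17 ± 0.23), and *Adgre5*, the gene of CD97, was lower (-2.45 ± 0.21). *S1pr4* lost its call without LD replicate 3 (adjusted p 0.0956).

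In a list of NK lineage transcription factors, 8 of 27 tested were lower and 3 higher. Of all tested genes 5.33% were lower and 3.27% higher. The median change of the list was -0.62 (6 lower and 2 higher within pool 1). *Tcf7* encodes TCF-1, a factor of developing and memory-like lymphocytes, and was at 22.8, 21.8 and 17.8 CPM in HD, against 177 and 165 CPM in LD (-3.05 ± 0.22, adjusted p = 1.58e-06; -3.10 within pool 1). *Eomes*, one of the T-box factors that define NK cells, was at 111, 130.4 and 95.7 CPM in HD, against 374 and 276 CPM in LD (-1.53 ± 0.24, adjusted p = 0.00119). The other T-box factor, *Tbx21*, was not called, at 147, 128 and 106 CPM in HD and 85.9 and 134 CPM in LD (0.23 ± 0.24, 95% interval -0.28 to 0.74). *Rora* (-1.97 ± 0.26), *Bach2* (-1.42 ± 0.23), *Ikzf3* (-1.20 ± 0.23), *Tox* (-1.18 ± 0.23), *Maf* (-1.08 ± 0.25) and *Lef1* (-0.93 ± 0.20) were lower. *Bcl11a* was higher, at 35.5, 41.02 and 32.6 CPM in HD, against 9.61 and 8.33 CPM in LD (2.01 ± 0.27). The zinc finger repressor *Zbtb32* (3.0 ± 0.55) and *Prdm1*, which encodes BLIMP-1 (1.12 ± 0.33), were higher too. *Bcl11a* was near absence in HD cells without antibody (no read in either), whereas *Zbtb32* was at 32.05 and 30.5 CPM there. *Irf8* was not called (0.66 ± 0.29, 95% interval 0.04 to 1.28). *Tox*, *Maf* and *Prdm1* lost their calls without LD replicate 3 (adjusted p 0.055 to 0.439). *Lef1* lost its call without LD replicate 1 (0.0795). *Maf* and *Prdm1* lost their calls without at least 1 HD library (0.0526 to 0.14).

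Genes tied to lymphocyte quiescence were also lower, 8 of 21 tested, with 1 higher (*Klf7*, 1.0 ± 0.20) and a median change of -0.71 (3 lower and 1 higher within pool 1). *Klf2*, whose product drives *S1pr1* transcription in T cells, was at 5.45, 5.72 and 5.81 CPM in HD, against 27.7 and 37.1 CPM in LD (-2.49 ± 0.20, adjusted p = 3.33e-06). *Klf3* (-2.50 ± 0.32) and *Pik3ip1*, an inhibitor of phosphatidylinositol 3-kinase (-2.15 ± 0.33), were lower. So were *Foxo1* (-0.72 ± 0.20), *Foxo3* (-1.07 ± 0.25), *Klf13* (-1.14 ± 0.29), *Ccng2* (-1.04 ± 0.29) and the CDK inhibitor *Cdkn1b* (-0.92 ± 0.26). Further decreases included *Phactr3*, a regulator of protein phosphatase 1 and actin, at 4.29, 5.97 and 6.93 CPM in HD, against 131 and 285 CPM in LD (-5.09 ± 0.39). Also lower were the small GTPase gene *Arl4d* (-4.27 ± 0.31), *Ypel3* (-2.86 ± 0.30), *Klf10* (-2.38 ± 0.19), the β-catenin coactivator *Bcl9l* (-2.18 ± 0.22) and *Pdcd4*, an inhibitor of translation (-2.09 ± 0.38). *Foxo1*, *Foxo3*, *Klf13*, *Ccng2* and *Cdkn1b* lost their calls without LD replicate 3 (adjusted p 0.132 to 0.345). *Klf7*, *Foxo1*, *Foxo3*, *Cdkn1b* and *Pdcd4* lost their calls without LD replicate 1 (0.056 to 0.144). *Foxo1*, *Foxo3*, *Klf13*, *Ccng2* and *Cdkn1b* lost their calls without at least 1 HD library (0.052 to 0.126).

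Genes of IL-15 signalling itself were called at a share near that of all tested genes (8.6%). Of 20 tested genes of the IL-2 and IL-15 receptor, STAT5 targets and feedback inhibitors, none was called higher and 2 lower, with a median change of -0.10 (1 higher and 1 lower within pool 1). At an unadjusted p under 0.05 limma had 2 of the 20 higher, and limma-voom on recovered reads called 1 higher. The lower ones were *Jak1*, at 475, 560.3 and 350.4 CPM in HD, against 1650.0 and 1232 CPM in LD (-1.65 ± 0.25, adjusted p = 9.14e-04), and *Bcl2l11*, the gene of the cell-death inducer BIM (-1.08 ± 0.27). Each leave-out ended the call for *Bcl2l11* (adjusted p 0.0555 to 0.192). *Il2ra*, the α chain of the IL-2 receptor, was at 1309.9, 838 and 483 CPM in HD, against 347 and 311 CPM in LD (1.30 ± 0.48, adjusted p = 0.116, 95% interval 0.27 to 2.33). The groups did not overlap for *Il2ra*, but the HD libraries spread widely. *Cish*, a STAT5-induced feedback inhibitor (0.49 ± 0.27, 95% interval -0.09 to 1.07), *Il2rb* (-0.63 ± 0.25, 95% interval -1.17 to -0.09) and *Bcl2* (-0.07 ± 0.27, 95% interval -0.64 to 0.50) were not called.

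Receptors and STATs of other cytokines were lower in 12 of 26 tested and higher in 1, with a median change of -0.68 (7 lower and 1 higher within pool 1). *Il7r* (-2.89 ± 0.27), *Il10ra* (-1.98 ± 0.25), *Ifngr1* (-1.75 ± 0.26), *Il17ra* (-1.44 ± 0.20), *Il18r1* (-1.74 ± 0.31), *Csf2rb* (-2.51 ± 0.39) and *Stat4*, which carries the IL-12 signal (-1.86 ± 0.29), were among the lower ones. *Ifngr1*, which encodes the ligand-binding chain of the interferon-γ receptor, was at 71.8, 70.4 and 43.9 CPM in HD, against 203 and 205 CPM in LD. *Il12rb1*, the chain shared by the IL-12 and IL-23 receptors, was the higher one, at 20.9, 19.1 and 16.2 CPM in HD, against 4.07 and 3.72 CPM in LD (2.24 ± 0.35). TGF-β restrains NK cells, and 5 of 15 tested genes of its pathway were lower and 1 higher, with a median change of -0.75 (3 lower and none higher within pool 1). *Ski* (-1.15 ± 0.22), *Skil* (-1.18 ± 0.27) and *Tgif1* (-1.23 ± 0.24) encode repressors of the pathway, *Pmepa1* a feedback inhibitor (-1.35 ± 0.33) and *Tgfbr3* a coreceptor (-3.23 ± 0.61). The binding protein gene *Ltbp3* was the higher one (1.51 ± 0.44). *Tgif1*, *Pmepa1* and *Ltbp3* lost their calls without LD replicate 3 (adjusted p 0.0523 to 0.121). *Il18r1*, *Ski*, *Skil*, *Pmepa1*, *Tgfbr3* and *Ltbp3* lost their calls without LD replicate 1 (0.052 to 0.336). *Skil*, *Pmepa1* and *Ltbp3* lost their calls without at least 1 HD library (0.0567 to 0.114).

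Immediate early and NF-κB genes, which antigen and activating receptors induce within hours, split into both directions, with 4 of 36 tested higher, 7 lower and a median change of -0.20 (3 higher and 4 lower within pool 1). *Nr4a1*, the gene of NUR77, was at 26.9, 24.4 and 19.5 CPM in HD, against 62.7 and 92.03 CPM in LD (-1.69 ± 0.23, adjusted p = 3.88e-04), with 4.29 and 4.48 CPM in HD cells without antibody. *Egr2* was at 157, 150 and 219 CPM in HD, against 649 and 266 CPM in LD (-1.27 ± 0.31, adjusted p = 0.0206; 0.241 without LD replicate 1). LD replicate 1 stood above LD replicate 3 for *Egr2*, and likewise for *Fos*, at 2.86, 11.3 and 2.93 CPM in HD, against 54.6 and 12.4 CPM in LD (-2.49 ± 0.66). The inhibitors *Dusp1* (-1.43 ± 0.26), *Nfkbid* (-1.16 ± 0.24), *Tnfaip3* (-1.03 ± 0.22) and the NF-κB subunit *Nfkb1* (-0.79 ± 0.20) were the other lower genes. *Ier3* (2.47 ± 0.27), *Plk2* (1.71 ± 0.33), *Plk3* (1.13 ± 0.26) and *Atf3* (1.18 ± 0.30) were higher. *Dusp1*, *Nfkbid*, *Tnfaip3* and *Atf3* lost their calls without LD replicate 3 (adjusted p 0.0545 to 0.16). *Egr2*, *Fos*, *Nfkb1*, *Plk2*, *Plk3* and *Atf3* lost their calls without LD replicate 1 (0.0741 to 0.311). *Egr2*, *Fos*, *Nfkb1*, *Plk3* and *Atf3* lost their calls without at least 1 HD library (0.0523 to 0.106).

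**Figure D3:**
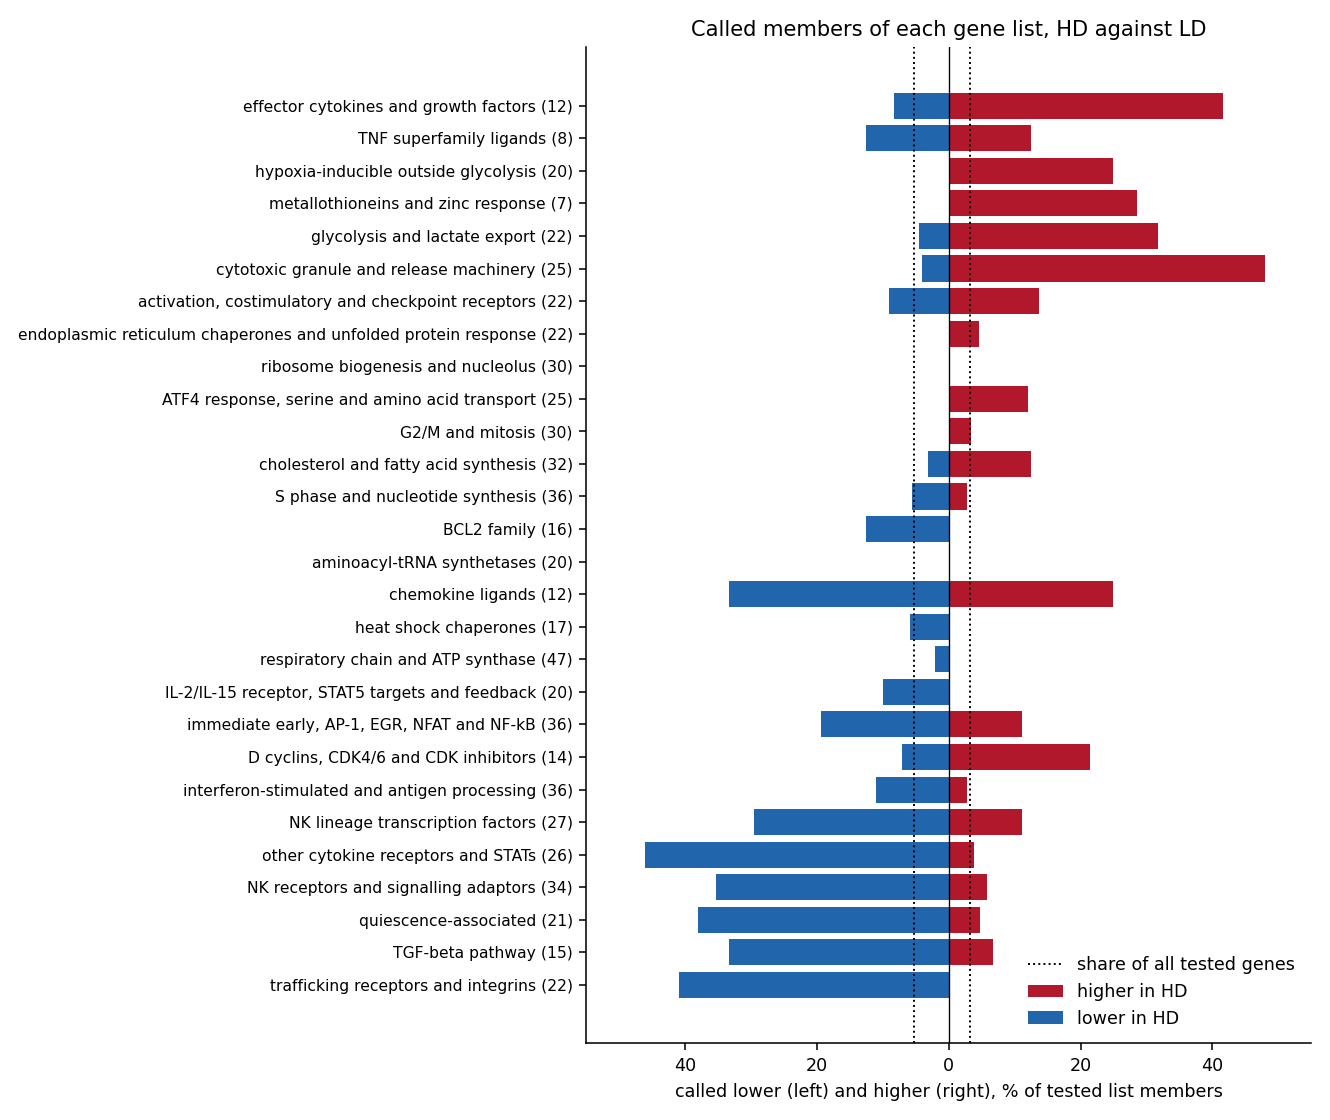
For 28 gene lists, ordered by the median log2 fold change of their tested members (number in brackets), bars give the percentage of tested members called lower (left, blue) and higher (right, red) in HD. Dotted lines mark the shares among all tested genes (5.33% lower and 3.27% higher); the granule list has 12 of 25 members higher and the trafficking list 9 of 22 lower.

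Among metabolic genes, 7 of 22 tested glycolysis genes were higher and 1 lower (*Pfkfb3*, -0.91 ± 0.22), with a median change of 0.54 (3 higher and none lower within pool 1). *Hk2*, the hexokinase of the first step, was at 195, 232 and 206 CPM in HD, against 96.6 and 101 CPM in LD (1.09 ± 0.19, adjusted p = 0.00273). The aldolase gene *Aldoc* (3.57 ± 0.64), the glucose transporter *Slc2a3* (1.02 ± 0.24) and *Pgk1* (1.28 ± 0.30) were higher. So were *Eno1* (0.98 ± 0.22), *Gapdh* (1.09 ± 0.31) and the lactate exporter *Slc16a3* (1.91 ± 0.46). *Ldha* was not called (0.28 ± 0.25, 95% interval -0.26 to 0.83). Outside glycolysis, 5 of 20 hypoxia-inducible genes were higher and none lower, with a median change of 0.78 (2 higher within pool 1). Lower were 3 at an unadjusted p under 0.05 by limma and 0 by limma-voom. *Ndrg1* was at 119, 107 and 126 CPM in HD, against 32.1 and 43.2 CPM in LD (1.65 ± 0.22), and *Vegfa* was also higher (1.31 ± 0.33). Several of these genes were higher still in HD cells without antibody, where *Aldoc* was at 193 and 276, *Eno1* at 342 and 491 and *Bnip3* at 156 and 211 CPM. Others were lower there than with antibody, with *Hk2* at 117 and 99.96, *Ndrg1* at 74.2 and 101 and *Vegfa* at 26.1 and 21.3 CPM. *Vegfa* was at 68.97, 33.3 and 68.4 CPM in HD with antibody. *Bnip3* was at 9.53, 11.2 and 10.1 CPM in HD with antibody, against 5.35 and 4.33 CPM in LD. The respiratory chain had 1 of 47 genes lower (*Sdha*, -0.85 ± 0.21) and none higher. Of all tested genes 5.33% were called lower and 3.27% higher. At an unadjusted p under 0.05 the respiratory chain had 1 higher by limma, and limma-voom called 1 higher. *Pfkfb3*, *Aldoc*, *Slc2a3*, *Gapdh*, *Slc16a3*, *Vegfa*, *Bnip3* and *Sdha* lost their calls without LD replicate 3 (adjusted p 0.0549 to 0.312). *Pgk1*, *Eno1*, *Gapdh*, *Slc16a3*, *Vegfa*, *Bnip3* and *Sdha* lost their calls without LD replicate 1 (0.0593 to 0.143). *Pfkfb3*, *Slc2a3*, *Pgk1*, *Gapdh*, *Slc16a3*, *Vegfa*, *Bnip3* and *Sdha* lost their calls without at least 1 HD library (0.0565 to 0.126).

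In lipid synthesis 4 of 32 tested genes were higher and 1 was lower (*Acss2*, -1.27 ± 0.35), with a median change of 0.23 (1 higher and none lower within pool 1). *Scd2*, a fatty acid desaturase, was at 44.6, 38.1 and 53.9 CPM in HD, against 20.98 and 23.04 CPM in LD (1.03 ± 0.20). *Fads2*, another desaturase (1.62 ± 0.36), and the cholesterol transport gene *Stard4* (0.82 ± 0.23) were higher too. The ATF4 and amino acid list had 3 of 25 higher (1 within pool 1) and none lower (0 at an unadjusted p under 0.05 by limma and 0 by limma-voom). *Asns*, the asparagine synthetase, was at 235, 277 and 191 CPM in HD, against 90.8 and 117 CPM in LD (1.17 ± 0.27). Of 30 ribosome biogenesis genes and 20 tRNA synthetases none was called by limma in either direction, with median changes of 0.32 and 0.04. At an unadjusted p under 0.05 limma had 4 and 1 of them, and limma-voom on recovered reads called 2 and 0. *Myc*, a driver of both, was at 59.4, 54.8 and 53.9 CPM in HD, against 28.4 and 47.7 CPM in LD (0.60 ± 0.25, adjusted p = 0.16, 95% interval 0.07 to 1.14). *Acss2*, *Fads2* and *Stard4* lost their calls without LD replicate 3 (adjusted p 0.118 to 0.253). *Acss2*, *Stard4* and *Asns* lost their calls without LD replicate 1 (0.062 to 0.179). *Acss2*, *Stard4* and *Asns* lost their calls without at least 1 HD library (0.0584 to 0.12).

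Cell-cycle lists are read against the 8.6% of all tested genes that were called. Of 36 S-phase genes 1 was higher (*Mcm10*, 1.26 ± 0.36) and 2 were lower (*Mcm6*, -1.17 ± 0.20, and *Ung*, -1.58 ± 0.28). Of 30 mitotic genes 1 was higher (*Ube2c*, 0.97 ± 0.26). The lists had median changes of 0.22 and 0.26. *Mki67*, a marker of dividing cells, was at 11.9, 15 and 26.4 CPM in HD and 16.9 and 11.8 CPM in LD (0.25 ± 0.32, 95% interval -0.45 to 0.94). Of 14 genes of the G1 switch, *Cdk6* (1.36 ± 0.23), *Ccnd1* (1.58 ± 0.30) and the CDK4 and CDK6 inhibitor *Cdkn2b* (5.58 ± 0.80) were higher and *Cdkn1b* lower. *Cdk6* was at 787, 935 and 719.6 CPM in HD, against 291 and 342 CPM in LD. *Cdkn2b* had 137, 165 and 207 reads in HD, against 16 and 1 reads in LD. *Mcm10* and *Cdkn1b* lost their calls without LD replicate 3 (adjusted p 0.171 to 0.218). *Mcm10*, *Ube2c*, *Ccnd1* and *Cdkn1b* lost their calls without LD replicate 1 (0.0593 to 0.241). *Mcm10*, *Ube2c* and *Cdkn1b* lost their calls without at least 1 HD library (0.0739 to 0.126).

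Interferon-stimulated and antigen-processing genes were lower in 4 of 36 tested and higher in 1 (*Ifi44*, 1.24 ± 0.35), with a median change of -0.43 (2 lower and none higher within pool 1). *Irf1*, an interferon-γ target, was at 16.6, 16.1 and 17.4 CPM in HD, against 38.3 and 34.6 CPM in LD (-1.12 ± 0.21, adjusted p = 0.00411). The guanylate-binding *Gbp2* (-1.03 ± 0.25), *Tap1* (-0.84 ± 0.23) and *B2m* (-0.90 ± 0.25) were lower. *Ifng*, whose product induces these genes, was called in the opposite direction, as given above. All 22 endoplasmic reticulum chaperone and unfolded protein response genes had a positive change, with a median of 0.38, though *Manf* alone was called (0.81 ± 0.22). Genes of a list are not independent. Of 17 heat shock genes 1 was lower (*Hspa8*, -0.90 ± 0.25) and none higher (0 at an unadjusted p under 0.05 by limma and 0 by limma-voom). Both counts are read against all tested genes, of which 3.27% were called higher and 5.33% lower. *Ifi44*, *Gbp2*, *Tap1*, *B2m* and *Hspa8* lost their calls without LD replicate 3 (adjusted p 0.119 to 0.185). *Ifi44*, *Gbp2*, *Tap1*, *B2m*, *Manf* and *Hspa8* lost their calls without LD replicate 1 (0.0862 to 0.247). *Ifi44*, *Gbp2*, *Tap1*, *B2m*, *Manf* and *Hspa8* lost their calls without at least 1 HD library (0.0532 to 0.128).

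NK cell markers were detected in both groups, and all 12 were in the table. Of these, 3 were called higher (*Prf1*, *Gzma*, *Gzmb*) and 4 lower (*Ncr1*, *Klrb1c*, *Klrk1*, *Eomes*), with a median change of -0.43. Their summed level, to which *Gzmb* gave the largest share of CPM, was 8208 to 10490 CPM in HD, against 5304 to 6408 CPM in LD. Some markers of other cells differed between the groups, and others were not called. In RNA from whole samples fewer cells of a type and less RNA per cell cannot be told apart. The T-cell genes *Cd3e*, *Cd3d*, *Cd3g* and *Cd5* summed to 24.4 to 29.3 CPM in HD, against 14.7 to 19.1 CPM in LD, with *Cd3g* alone called higher (1.05 ± 0.29). *Cd3e* went the other way (-0.39 ± 0.89), with 0, 0 and 2 reads in HD, against 3 and 4 reads in LD. The other 6 of the 10 markers were not analysed here. B-cell genes summed to 0.886 to 1.58 CPM in HD, against 1.24 to 4.38 CPM in LD, with *Cd79a* and *Ms4a1* at 0 in all 5 libraries. For macrophages, monocytes and dendritic cells, 4 of 18 markers were lower (*Itgax*, *Cd74*, *H2-Aa*, *H2-Eb1*), with a summed level of 148 to 179 CPM in HD, against 421 to 543 CPM in LD, most of it *Itgax*. For basophils and mast cells, 7 of 11 were lower, with a summed level of 64.7 to 104 CPM in HD, against 179 to 208 CPM in LD, most of it *Kit*. For neutrophils, *Mpo* and *Cxcr2* of 6 were lower, at 4.54 to 5.25 CPM in HD, against 17.5 to 27.3 CPM in LD. Of the 11 red cell and platelet genes in the table *Pf4*, *Ppbp* and *Itga2b* were lower, with a summed level of 628 to 714 CPM in HD, against 792 to 809 CPM in LD, most of it *Car2* (-0.09 ± 0.38). *Prf1*, *Ncr1*, *Klrk1*, *Cd3g* and *Cxcr2* lost their calls without LD replicate 3 (adjusted p 0.0989 to 0.36). *Gzma* and *Cd3g* lost their calls without LD replicate 1 (0.106 to 0.141). *Prf1*, *Ncr1* and *Cd3g* lost their calls without at least 1 HD library (0.0542 to 0.116).

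Genes of the megakaryocyte and platelet lineage were among those furthest below LD. *Pf4*, which encodes platelet factor 4, was at 0.51, 1.21 and 0.577 CPM in HD, against 45.5 and 66.5 CPM in LD (-6.13 ± 0.44, adjusted p = 1.58e-06; -5.85 within pool 1). *Ppbp*, a platelet chemokine, had no read in any HD library, against 339 and 353 reads in LD, which puts it at least 62.9-fold lower in HD by the same floor of 3 reads. Over 14 such genes, put together after their values had been seen and so given with no test, the HD libraries summed to 1.098 to 1.36 CPM, against 73.7 to 113 CPM in LD. Of the 14, 10 had no HD read. The same sum was 80.9 to 106 CPM in naive cells with antibody and 1.75 to 2.38 CPM in HD cells without it. *Mpo*, the myeloperoxidase of granulocyte precursors, had no read in HD, against 301 and 240 reads in LD (at least 47.4-fold lower). The basophil protease *Prss34* was at 0.51, 0.402 CPM and no read in HD, against 19.6 and 31.7 CPM in LD (-6.43 ± 0.65). The eosinophil granule genes *Prg2*, *Prg3*, *Epx* and *Ear6*, also put together afterwards, summed to 0.0466 to 0.315 CPM in HD, against 11.1 to 17.1 CPM in LD. Naive cells with antibody summed to 0.0233 to 0.795 CPM. *Prg2*, *Prg3*, *Epx* and *Ear6* lost their calls without LD replicate 3 (adjusted p 0.0726 to 0.267). *Prg3*, *Epx* and *Ear6* lost their calls without LD replicate 1 (0.0532 to 0.193). *Prg3* and *Ear6* lost their calls without at least 1 HD library (0.0717 to 0.0773). The part of these lineages in the other results was not tested.

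**Figure D4:**
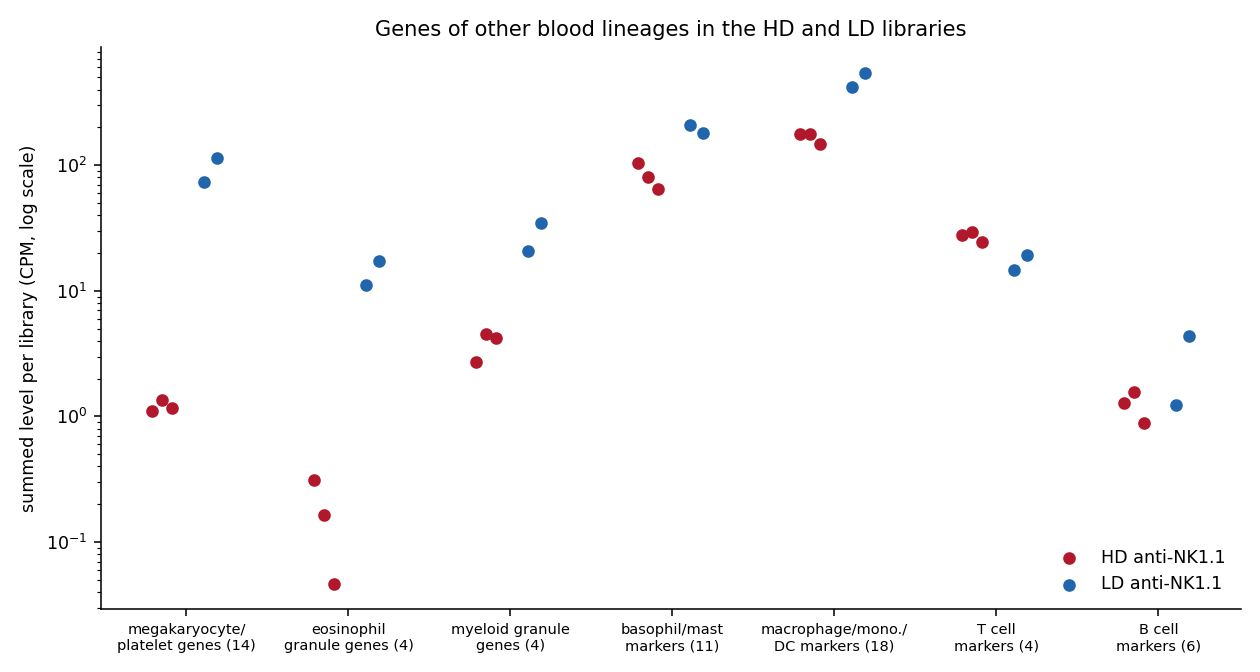
Summed level (CPM, log scale) of genes of other blood lineages in the 3 HD (red) and 2 LD (blue) libraries, with 1 point per library and the number of genes in brackets. The megakaryocyte and platelet sum lies between 1.098 and 1.36 CPM in HD, against 73.7 and 113 CPM in LD. The sum of the 4 T-cell genes lies higher in HD, though not every one of them does, and the B-cell sums overlap.

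Low reads limit both directions. Of the genes called lower, 37 had no read in the 3 HD libraries, and of the genes called higher 10 had none in the 2 LD libraries, among 190 and 81 tested genes with no read there. HD libraries had 518 to 620 genes with no read, against 155 and 384 in LD, so an absence in HD is read against a lower depth. Floors cover counting error only. An exact permutation test of a single gene cannot go below p = 0.1 with 3 libraries against 2, so all tests rest on the spread shared by genes and groups in the limma model.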

How the data were processed

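The deposited table holds 11989 genes in 13 libraries. The deposited unit, log2 of counts that the authors quantile-normalized and raised by 1, was settled from the values: they run from 0 to 17.92, and sorted values of different libraries differ by a median of 0.009. Per the labels' protocols, poly(A) RNA gave strand-specific libraries pooled after first-strand synthesis. The build was mm10 per the submitters' processing notes; aligner, counter and annotation are not given in the sources used here. Quantile normalization hides depth and can shift low genes of a deeper library. Reads were therefore also recovered from the order of each library's values, which holds up to rank 7000 by level. Above that rank, reads are the back-transformed value times a fixed ratio per library. For abundant genes limma-voom is therefore not free of the normalization.

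One limma model (3.58.1, R 4.3.3) with 5 group means and a mean-variance trend was fitted to all 13 libraries (8 residual and 6.3 prior degrees of freedom), keeping genes that reached 10 on the back-transformed scale in 2 or more libraries (446 fell short). The contrast was HD minus LD, both with anti-NK1.1, two-sided, Benjamini-Hochberg adjusted over 11543 genes, and the script was checked on simulated data. Named genes are the 15 highest and 15 lowest called changes among genes of at least 20 CPM without group overlap, per list the 4 lowest p, and a panel; other called list members were named after their values were seen, and some allowed genes are not reported here, though list counts include them. The members and lists were chosen with earlier results of these data known. Whether replicate numbers pair the groups is not known. Deviations of same-numbered libraries correlated at r of -0.12 for number 1 and -0.09 for number 3. This cannot decide it, because the deviations of the 2 LD libraries are exact opposites and those libraries lie in different pools. Alternatives were a stricter filter (50) and none, robust moderation, treat at 1.5-fold, no trend, the 5 libraries alone, replicate and pool terms, an offset of 8, median-ratio scaling, limma-voom on recovered reads, and each library left out. Coordinates are from GENCODE, which held 11983 of the identifiers, and promoters from RefSeq, which matched 9246 tested genes. Tables and figures used Python 3.11.15, pandas 2.3.3, numpy 2.4.6 and matplotlib 3.10.9.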

Additional observations from a re-analysis of the deposited data

How the results depend on the processing

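The 378 higher and 615 lower calls came to 99 and 202 when tested against a fold change of 1.5, 238 and 339 with the replicate number as a block, and 135 and 309 with library pool as a factor, which is also the fit without LD replicate 3. Leaving out each library gave 135 to 230 higher and 309 to 446 lower calls. The 5 libraries alone gave 403 lower calls, and limma-voom on recovered reads gave 666 higher calls. Both counts stayed within 1.5 times of the full fit with a stricter filter, no filter, robust moderation, no trend, an offset of 8 and median-ratio scaling, as did the higher count with the 5 libraries alone (408) and the lower count with limma-voom (717).

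Of 171 named genes, none reversed while called. Uncalled genes that turned sign with pool as a factor were *Mki67* (-0.0137), *Bcl2* (0.089) and *Cd3e* (0.36), and *Bcl2* did so with the block (0.05473). Over the leave-outs *Tbx21* ran from -0.08833 to 0.55, *Mki67* from -0.0799 to 0.51, *Bcl2* from -0.38 to 0.13, *Hba-a1* from -2.32 to 0.09953, *Cd3d* from -0.06857 to 0.56, *Ebf1* from -0.0647 to 1.36 and *Cd3e* from -1.13 to 0.36. The cause was not tested. The replicate block ended 28 calls of named genes, and whether the numbers pair these libraries is not known. Depth limits low genes most: HD libraries had 153 to 222 reads at the median gene, against 266 and 463 in LD.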

Other observations

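Some further called genes outside the lists are given here, and all were picked after their values had been seen. The galectin genes *Lgals3*, at 1791, 1540.5 and 1358 CPM in HD, against 448 and 606 CPM in LD (1.58 ± 0.25), and *Lgals1* (1.32 ± 0.25) encode galactoside-binding lectins and were higher. *Gcnt4*, which encodes a glycosyltransferase of O-glycans, had no read in LD and was at least 38.1-fold higher in HD with a floor of 3 reads per library. In the other direction, *Ctsg*, a protease gene that lies beside the granzyme cluster on chromosome 14 (56099881 to 56102574, minus strand), was at no read, 0.204 CPM and no read in HD, against 3.97 and 10.004 CPM in LD (-5.63 ± 0.92). *Ctsg* is also a myeloid granule gene. With *Mpo*, *Prtn3* and *Elane* it summed to 2.70 to 4.51 CPM in HD, against 20.8 to 34.7 CPM in LD. Of these 4 genes 3 were called lower. Fewer myeloid cells and less RNA per cell cannot be told apart. The decrease of *Ctsg* was not tested as a change within NK cells. *Lgals1* lost its call without LD replicate 1 (adjusted p 0.062).

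Several genes differed between HD and LD while HD cells without antibody lay on the LD side. *Hbegf*, *Bcl11a* and *Ccnd1* are of this kind: *Ccnd1*, the gene of cyclin D1, was at 61.7, 67.4 and 55.8 CPM in HD with antibody, 17.1 and 24.5 CPM in LD with antibody and 2.53 and 1.41 CPM in HD without it. Others were already high there: *Ifitm1* was at 212, 219.9 and 156 CPM in HD with antibody, 13.01 and 16.2 CPM in LD with antibody and 345 and 513 CPM in HD without it, and *S100a6* at 453, 450.4 and 327, 37.6 and 59.7 and 834 and 1248 CPM in the same order. LD cells without antibody were not measured here, so neither kind was tested as a difference in response.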
